A study of Mus musculus with 6 samples.

Results

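Neurotransmitter receptors are the proteins with which a cell senses glutamate, GABA, glycine, acetylcholine or serotonin. The genes described here encode the subunits of the ligand-gated ion channels for these transmitters, together with the metabotropic glutamate receptors, which signal through G proteins. They were taken by gene symbol alone: a symbol beginning with Gabr, Gria, Grik, Grin1, Grin2, Grin3, Chrn, Glra, Glrb or Htr3, or that of a delta (Grid) or metabotropic glutamate (Grm) receptor. No measured value entered the rule itself, but the set was chosen with earlier results of these data known. It gave 65 genes with 100 probes, of 18749 named genes and 41174 probes on the array.

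RNA was measured in 6 primary cultures from lung tumours of C57BL/6J mice, a model of small cell lung cancer. All 6 lines came from animals with Rb1L/L and Trp53L/L alleles, so both groups share this background. Left unstated are how the alleles were recombined, the age of the animals and whether a line is a single clone. The lines were 3 labelled SMC, an abbreviation that the labels leave unexplained, and 3 labelled non-SMC. Each SMC line shares a pair label with 1 non-SMC line, pairs 1 and 3 being labelled female and pair 2 male, with 1 array per line. Replicates are thus separate lines, and no line was measured again.

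In the brain, AMPA and kainate receptors carry fast excitation, and NMDA receptors add a slower calcium entry that depends on voltage. GABA-A and glycine receptors pass chloride and usually inhibit. Nicotinic acetylcholine receptors come in a neuronal form and in a muscle form that receives the signal from the motor nerve. Pulmonary neuroendocrine cells, the cells that small cell lung cancer resembles, are innervated and carry several neuronal genes. Each channel is an assembly of 4 or 5 subunits (5 in the GABA-A, glycine and nicotinic families), so a transcript of 1 subunit does not show that a channel is present.

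Each level is the log2 signal after subtracting its own array's 75th percentile, where 0 is that percentile and 1 unit is a 2-fold change. A probe was called above background by the scanner software's stricter flag, and the lowest such level on an array lay between -6.71 and -6.04. Some readings above that level were not called. Folds given as "at least", which use that level for dim readings, are therefore not strict limits. Levels of different genes come from different probes and are not compared with each other. Differences are SMC minus non-SMC, with a standard error (SE) from limma over the 3 pairs, and a gene was called changed at an adjusted p under 0.05 over 19848 features. In bulk RNA, fewer cells of a type and less RNA per cell cannot be told apart.

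The group labels were set against marker genes first. All 10 neuroendocrine markers were above background on the 3 SMC arrays, against 9, 10 and 10 on the non-SMC arrays. Their median level was 4.02, 3.54 and 4.08 in SMC lines 1 to 3, against -3.92, 1.98 and -1.32 in non-SMC lines 1 to 3. The non-SMC line of pair 2 therefore held the most neuroendocrine signal of its group. Mesenchymal markers had medians of -5.72, -6.39 and -5.22 in SMC lines and of 5.68, 4.32 and 5.04 in non-SMC lines. Of 9 leukocyte markers, 3, 5 and 7 were above background in SMC lines 1 to 3, and 3, 5 and 9 in non-SMC lines 1 to 3. Between 64.1% and 68.5% of all probes were above background on an array, and no probe was saturated. SMC lines 1 and 2 and non-SMC lines 2 and 3 shared a slide, while SMC line 3 and non-SMC line 1 each lay on a slide of their own.

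A smaller share of the receptor genes than of all named genes was detected in each of the 6 lines. Counting a gene as detected where any of its probes was above background, 29, 27 and 35 of the 65 receptor genes were detected in SMC lines 1 to 3, against 21, 28 and 19 in non-SMC lines 1 to 3. These are 44.6%, 41.5% and 53.8% in SMC lines and 32.3%, 43.1% and 29.2% in non-SMC lines. Over all 18749 named genes the shares were 71.1%, 71.0% and 73.9% in SMC lines and 71.5%, 75.2% and 72.4% in non-SMC lines. The mean count was 30.3 ± 4.16 receptor genes in SMC lines and 22.7 ± 4.73 in non-SMC lines (SD, n = 3), and the ranges overlapped because non-SMC line 2 detected more than SMC line 2. The difference of 7.67 genes had a two-sided exact permutation p of 0.2, where 3 against 3 lines cannot give less than 0.1. That test did not use the pair labels. An exact sign-flip permutation over the 3 pairs gave p = 0.5, where 0.25 is the smallest possible. The difference was 12 genes without pair 2, 7.5 without pair 1, 3.5 without pair 3 and 4.5 on the slide of 4 arrays.

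**Figure D1:**
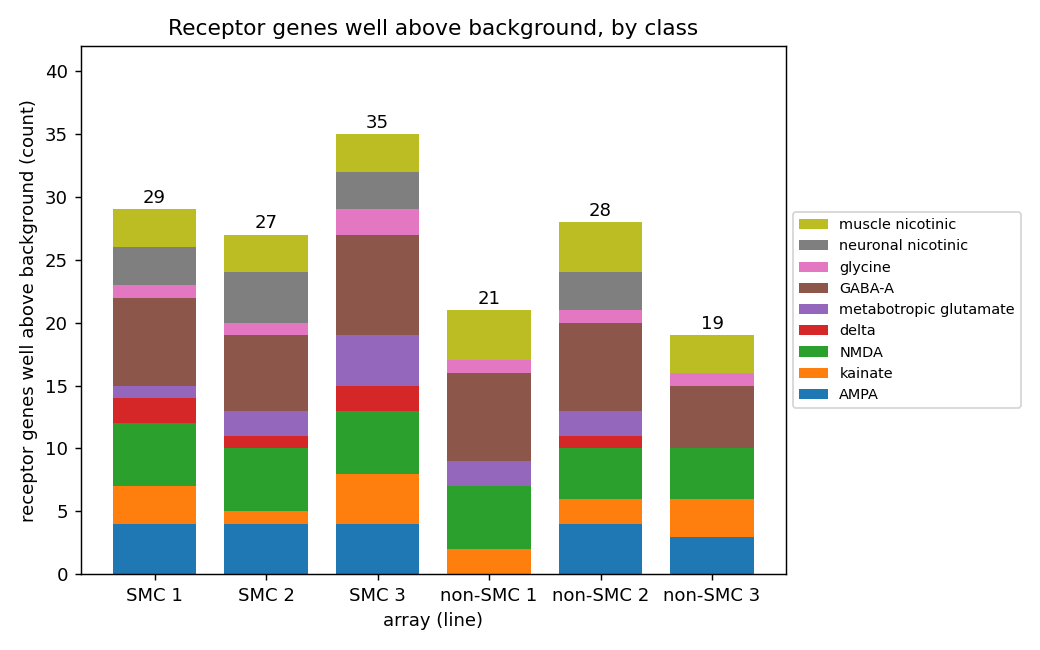
Receptor genes above background on each array, as counts stacked by receptor class, with the total over each bar. SMC line 3 has the tallest bar at 35 genes and non-SMC line 3 the shortest at 19, while non-SMC line 2 reaches 28, above the 27 of SMC line 2.

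Of the 65 genes, 44 were detected somewhere and 21 nowhere, and 8 were detected on exactly 1 array. There were 11 genes detected in at least 1 SMC line and in no non-SMC line, 16.9% of the 65 against 3.58% of all named genes, and 4 with the opposite pattern, 6.15% against 5.40%. More SMC than non-SMC arrays detected 24 genes (36.9%, against 9.48% of all named genes), and more non-SMC than SMC arrays detected 6 (9.23%, against 10.0%). Detection in every line was rarer: 15.4% of the 65 were found on all 6 arrays, against 61.1% of all named genes. On no array were 32.3% of the 65, against 16.3%. Genes found on all arrays or on none cannot differ between groups, so the percentages by group are not like for like. Among genes that did differ, more SMC arrays detected 24 receptor genes and more non-SMC arrays 6, against 1777 and 1882 of all named genes. Detection in 1 group alone gave 11 receptor genes for SMC and 4 for non-SMC, against 671 and 1013. The genes found on all 6 arrays were Grik5, Grin1, Grin2d, Grin3b, Gabrd, Gabrp, Gabrr1, Glrb, Chrnd and Chrne. In the heat map the rows of Gria2 and Chrnb2, among others, were brighter in every SMC column than in any non-SMC column. The row of Chrnb1 was brighter in every non-SMC column than in any SMC column.

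**Figure D2:**
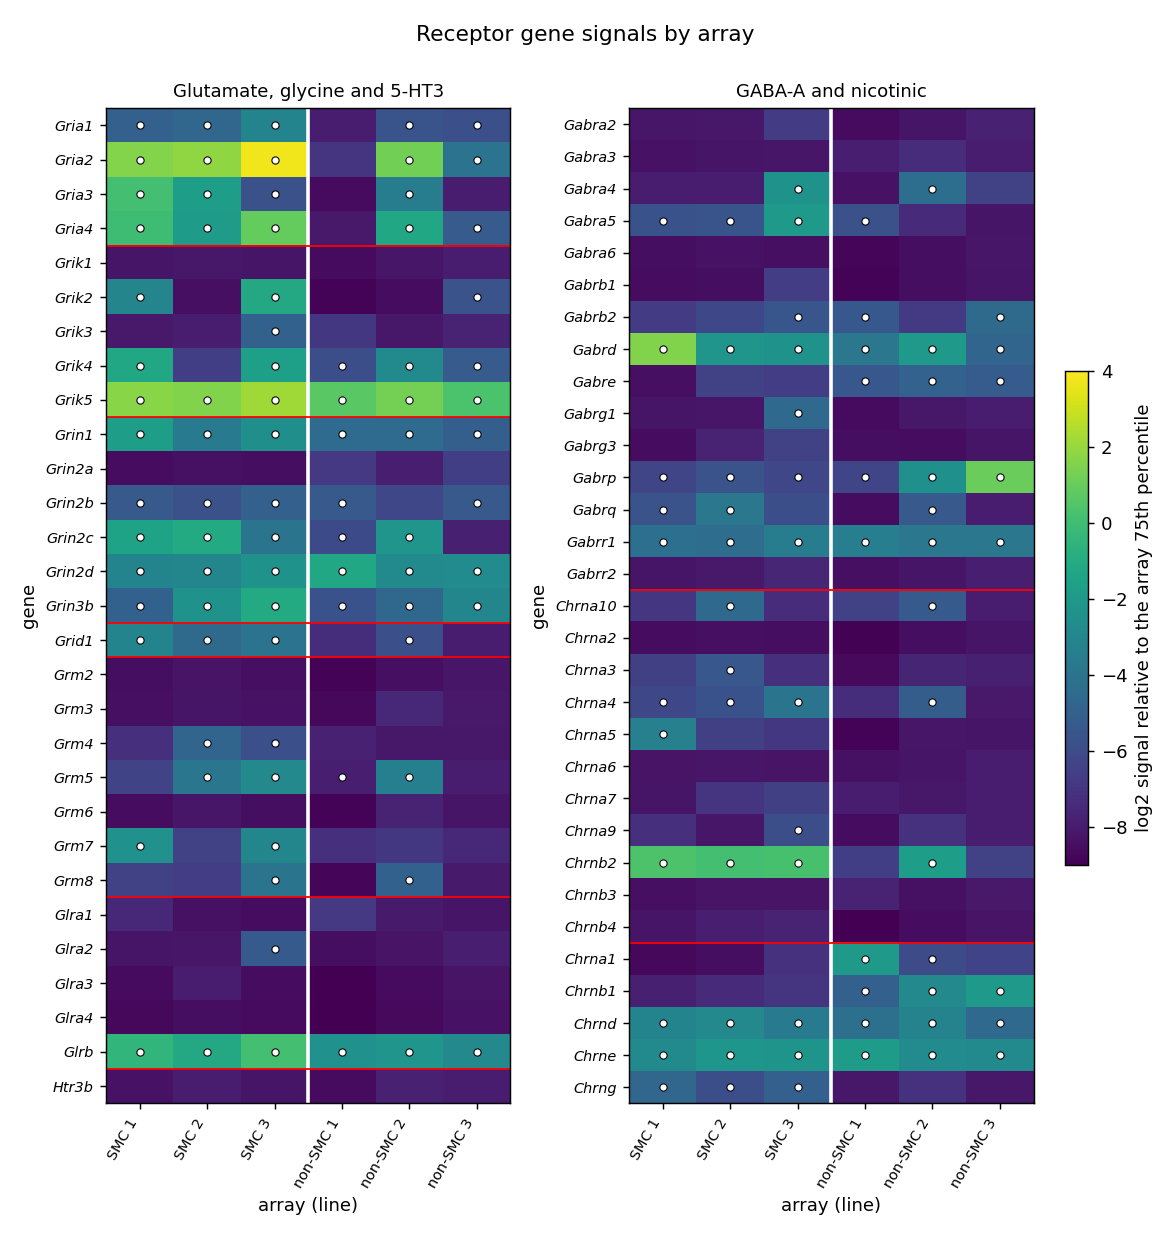
Level of 60 of the 65 receptor genes on the 6 arrays (colour, log2 signal relative to the array's 75th percentile), SMC lines left of the white line. A dot marks a gene with a probe above background, and 20 rows have no dot.

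For the test, 24 of the 65 genes had a probe detected on each of the 3 arrays of SMC, of non-SMC or of both. Of these, 11 passed this filter through the SMC arrays alone, 3 through the non-SMC arrays alone and 10 through both, so the counts that follow describe the 24 and are no measure of the 65. By limma, 0 of the 24 genes were higher in SMC (0.156% of all features were) and 1 gene, Chrnb1, was lower (3.03% of all features were). At an unadjusted p under 0.05, 10 were higher (14.9% of all features) and 2 lower (11.8%). The SMC minus non-SMC difference was above 0 for 19 of 24 genes (58.3% of all features) and had a median of 2.03, against 0.18 over all features. In 10 genes every SMC line lay above every non-SMC line (22.8% of all features), and in 2 every SMC line lay below (15.4%). The difference exceeded 2 units in 13 genes (8.61% of all features) and was under -2 in 2 (9.09%), and all 3 pairs were above 0 in 14 genes (33.6%) and below 0 in 2 (21.9%). Without the filter, all 65 genes could be set beside all 32406 features: 49 had a difference above 0 (75.4%, against 61.7%), with a median of 0.77 against 0.11.

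Pair 2 differed least. The median difference of the 24 genes was 2.38 in pair 1, 0.58 in pair 2 and 2.44 in pair 3, and among the 19 genes with a positive mean difference pair 2 gave the smallest value in 15. Neuroendocrine marker levels ran along with this, since the 2 lines of pair 2 had medians of 3.54 (SMC) and 1.98 (non-SMC), and their part in the result was not tested. With pair 2 left out, limma called 8 of 29 tested receptor genes higher in SMC, among them Chrnb2, Gria2, Gria4, Grid1, Grik2, Grin2c and Grm7, and 0 lower. Over all 20543 features of that fit, 543 were higher (2.64%, against 0.156% with all pairs) and 502 lower, so the calls higher in SMC grew in number across the whole array. Grik2 and Grm7 entered that fit only because both remaining SMC lines detected them. With pair 1 or pair 3 left out it called 0 in either direction, as it did among all features. Pair 2 is also the male pair, so sex and pair cannot be told apart. An interaction of group with the sex label passed for 0 of 19848 features by limma, and for 1009 features and 6 of the 24 receptor genes at an unadjusted p under 0.05.

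**Figure D3:**
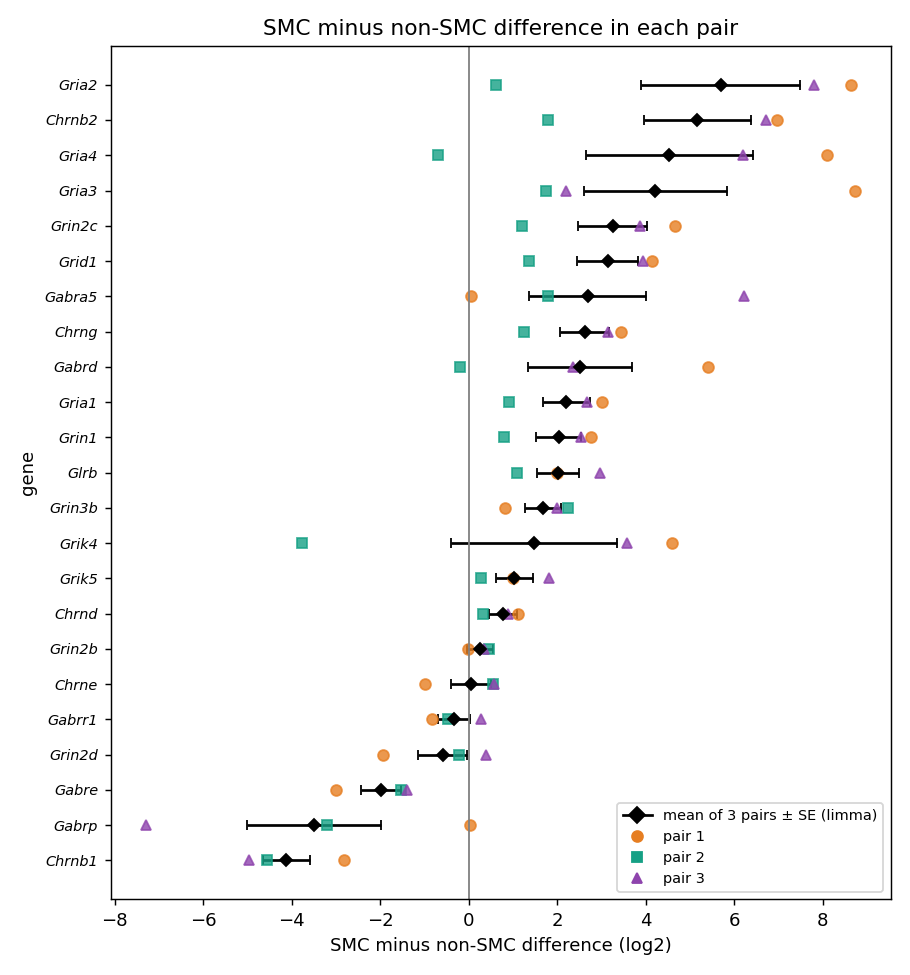
SMC minus non-SMC difference (log2) of 23 of the 24 tested receptor genes in each of the 3 pairs, with the mean of the pairs and its SE from limma in black. Pair 2 lies left of the other two pairs in most genes above the middle of the plot, and Chrnb1, at the bottom, is negative in all 3 pairs.

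The AMPA receptor subunits Gria1 to Gria4, which form the fast excitatory glutamate channel, were all detected in every SMC line. In non-SMC lines 1 to 3, 0, 4 and 3 of the 4 genes were detected. Gria2 encodes the subunit that makes the channel nearly impermeable to calcium once its transcript is edited. Its level was 1.61, 1.84 and 3.74 in SMC lines, against -7.02, 1.21 and -4.06 in non-SMC lines. All SMC lines lay above all non-SMC lines, but non-SMC line 2 came within 1 unit of the SMC lines 1 and 2 while the other two non-SMC lines were far lower. The difference was 5.69 ± 1.80 (adjusted p = 0.159), and it was 8.22 (adjusted p = 0.0324) without pair 2. A second Gria2 probe was above background on no array.

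Gria2 is shown with its promoter because it was the one receptor gene whose RefSeq promoter held a near match to RE1, the element bound by the repressor REST, which is known for silencing neuronal genes in other cells. The letters searched were its half-sites CAGCACC and GGACAG with 2 bases between them, on both strands, with at most 1 mismatch in all. Promoters, here windows of 300 bases around the transcription start, were given for 46 of the 65 genes (54 promoters), and 61 of all 32851 promoters (0.186%) held such a match. The match in Gria2, in capitals, lies on the reverse strand and has 1 mismatch. It is a match of letters and was not tested for binding. The window is chr3:80802786-80803085, minus strand, in GRCm38.p6.
Gria2: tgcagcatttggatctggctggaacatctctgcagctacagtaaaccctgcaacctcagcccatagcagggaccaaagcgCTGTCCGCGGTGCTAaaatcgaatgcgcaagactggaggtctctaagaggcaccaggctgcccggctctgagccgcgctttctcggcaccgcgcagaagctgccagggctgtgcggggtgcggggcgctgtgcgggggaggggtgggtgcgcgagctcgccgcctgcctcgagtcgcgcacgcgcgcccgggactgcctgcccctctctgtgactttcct

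The other AMPA subunits had the same order of group means. Gria4 stood at -0.02, -1.86 and 0.93 in SMC lines and at -8.11, -1.18 and -5.27 in non-SMC lines, where SMC line 2 lay below its own non-SMC partner. Its difference was 4.53 ± 1.89 (adjusted p = 0.222; 7.15 and 0.0344 without pair 2), and its 3 probes gave 4.28 to 4.53. For Gria3 the SMC levels of 0.12, -1.75 and -5.76 faced non-SMC levels of -8.61, -3.50 and -7.95. The groups overlapped, SMC line 3 being below non-SMC line 2, with a difference of 4.22 ± 1.61 (adjusted p = 0.198). Gria1, the subunit tied to activity-dependent insertion at synapses, gave -5.02, -4.69 and -3.15 in SMC lines against -8.02, -5.60 and -5.82 in non-SMC lines. The groups did not overlap for Gria1, the difference was 2.20 ± 0.53 (adjusted p = 0.121), and its other probe gave -0.13.

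Among the 6 NMDA receptor genes, 5 were detected on each SMC array, and 5, 4 and 4 on non-SMC arrays 1 to 3. Grin1, the obligatory subunit, was above background in all 6 lines. Its level was -1.71, -3.67 and -2.55 in SMC lines and -4.48, -4.48 and -5.08 in non-SMC lines, all SMC lines above, with a difference of 2.03 ± 0.51 (adjusted p = 0.126). Grin2c, a glutamate-binding subunit prominent in the cerebellum, gave -1.44, -1.03 and -3.98 in SMC lines against -6.09, -2.24 and -7.86 in non-SMC lines. Non-SMC line 2 exceeded SMC line 3, and the difference was 3.25 ± 0.78 (adjusted p = 0.120; 4.26 and 0.0431 without pair 2). Grin3b, a glycine-binding subunit, stood at -4.94, -2.38 and -1.06 in SMC lines and at -5.75, -4.62 and -3.05 in non-SMC lines. In each pair the SMC line was the higher for Grin3b, although the groups overlapped, and the difference was 1.68 ± 0.41 (adjusted p = 0.123).

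The glutamate-binding subunits Grin2b and Grin2d showed no such order. Grin2b lay between -5.80 and -5.03 in SMC lines and between -6.24 and -5.37 in non-SMC lines, a difference of 0.26 ± 0.29 (adjusted p = 0.605). Its other probes were above background on no array but that of non-SMC line 1, and differed by -0.27 to 0.97. Grin2d read -3.12, -3.04 and -2.35 in SMC lines and -1.18, -2.81 and -2.74 in non-SMC lines, with non-SMC line 1 the highest and a difference of -0.59 ± 0.56 (adjusted p = 0.536). Grin2a, another glutamate-binding subunit, was detected on no array (-8.58 to -8.44 in SMC lines, -7.91 to -6.58 in non-SMC lines). The NMDA genes thus held no pattern shared by all members.

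Of the 5 kainate receptor genes, Grik5, an auxiliary high-affinity subunit, was detected in every line. Its level was 1.67, 1.55 and 2.16 in SMC lines and 0.68, 1.28 and 0.34 in non-SMC lines. All SMC lines lay above, by a difference of 1.03 ± 0.42 (adjusted p = 0.215). Grik4, of the same high-affinity type, had -1.27, -6.60 and -1.68 in SMC lines against -5.87, -2.83 and -5.26 in non-SMC lines. Pairs 1 and 3 were higher in SMC and pair 2 was lower, giving 1.47 ± 1.87 (adjusted p = 0.646). Grik2, which forms channels by itself, was at -3.09, -8.45 and -1.15 in SMC lines and at -8.89, -8.58 and -5.69 in non-SMC lines. It was detected in SMC lines 1 and 3 and in non-SMC line 3, and so was not tested with all lines. Grik3 was above background in SMC line 3 alone (-8.12, -8.03 and -4.95 in SMC lines, -6.88, -8.18 and -7.75 in non-SMC lines), and Grik1 nowhere (-8.27 to -8.18 in SMC lines, -8.64 to -7.98 in non-SMC lines).

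The delta receptors are relatives of the glutamate channels that act at synapses mainly as adhesion-type receptors. Grid1 levels were -3.14, -4.49 and -4.03 in SMC lines, against -7.28, -5.84 and -7.96 in non-SMC lines. Every SMC line was above every non-SMC line, of which line 2 alone was detected, and the difference was 3.14 ± 0.69 (adjusted p = 0.111). Grid1 was called with the replicate block removed (adjusted p = 0.0466), with median scaling (3.06, adjusted p = 0.0491) and without pair 2 (4.04, adjusted p = 0.0418).

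Metabotropic glutamate receptors were sparse: 1, 2 and 4 of the 8 genes were detected in SMC lines 1 to 3 and 2, 2 and 0 in non-SMC lines, and none could be tested. Grm7, a presynaptic receptor of low affinity, had -2.42, -6.44 and -3.01 in SMC lines and -7.26, -6.89 and -7.52 in non-SMC lines. It was detected in SMC lines 1 and 3 and in no non-SMC line, at least 5.28-fold higher in SMC by group means, a bound of 3.10 without SMC line 1, 12.5 without SMC line 2 and 3.80 without SMC line 3. Grm4, a presynaptic receptor of the same group, gave -7.19, -4.74 and -5.84 in SMC lines against -7.80, -8.17 and -8.14 in non-SMC lines. That made Grm4 at least 1.35-fold higher by the mean of all 3 SMC lines, of which lines 2 and 3 detected it. The bound was 2.10 without SMC line 1, and without SMC line 2 no fold could be given. Grm5, a receptor coupled to phospholipase C, was at -6.34, -3.88 and -2.87 in SMC lines and -7.91, -3.37 and -7.96 in non-SMC lines, so that non-SMC line 2 alone stood among the SMC lines, and any of its 4 probes was above background on 2 arrays of each group. Grm8 read -6.44, -6.66 and -3.99 in SMC lines and -8.82, -4.95 and -8.07 in non-SMC lines, with 1 array of each group above background. Grm2, Grm3 and Grm6, the last known from retinal bipolar cells, were detected nowhere, at -8.55 to -8.23 in SMC lines and -8.89 to -7.52 in non-SMC lines.

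**Figure D4:**
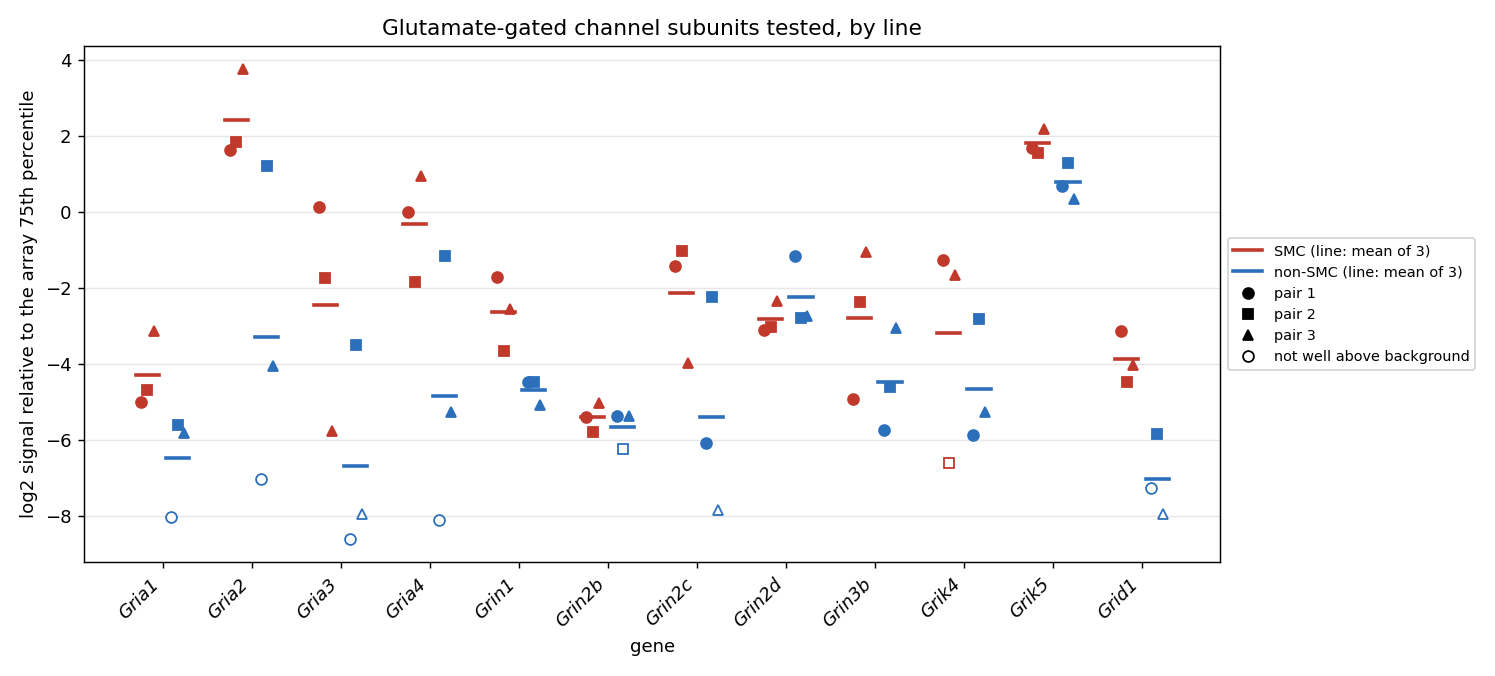
Levels of the 12 tested glutamate channel subunits (log2 signal relative to the array's 75th percentile), SMC left of non-SMC for each gene, with the mean of 3 lines as a bar and open symbols for signals not above background. The non-SMC square of pair 2 sits nearest to the SMC points in Gria2, Gria4 and Grin2c, while Grin2b and Grin2d show no separation.

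Proteins that anchor and tune glutamate receptors were read from a list of scaffolds and auxiliary subunits. Of 33 such genes on the array 22 passed the same detection filter and were tested. By limma 0 were called in either direction and 10 had an unadjusted p under 0.05. At that level 14.9% of all features were higher in SMC and 11.8% lower. The median difference of the 22 was 1.77 (0.18 over all features), with 19 of 22 above 0 (58.3% of all features). Counts in this and the other lists describe the tested genes, not the whole list. The 2 with the largest differences were Neto1, an auxiliary subunit of kainate receptors, and Homer2, a scaffold of metabotropic glutamate receptors. Neto1 was at 2.67, 2.81 and 2.22 in SMC lines and at -6.08, 2.15 and -3.86 in non-SMC lines (5.16 ± 1.69, adjusted p = 0.165). Homer2 had 2.12, 1.07 and 2.42 in SMC lines against -6.56, 0.03 and -2.87 in non-SMC lines (5.01 ± 1.57, adjusted p = 0.157). In both, non-SMC line 2 again lay close to the SMC lines.

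Glutamate transport and metabolism gave 15 tested genes of 19. Of these 0 were higher and 1 was lower in SMC (0.156% and 3.03% of all features). The median difference was -0.22 (0.18 over all features). The lower gene was Slc1a3, the glutamate uptake transporter of astrocytes. It was at -8.42, -8.35 and -8.28 in SMC lines, above background in none, against 0.11, -2.48 and 0.18 in non-SMC lines, where it was always detected. Slc1a3 was therefore at least 47.5-fold lower in SMC (limma adjusted p = 0.0223). The bound was 34.6 to 87.2 with 1 non-SMC line left out, the highest without line 2. Slc1a3 kept the call under 14 of 19 alternatives. Among the alternatives that lost it were those without pair 1 (adjusted p = 0.102), without pair 3 (0.115) and on the slide of 4 arrays (-7.23, adjusted p = 0.0592). Without pair 1 or pair 3 no feature of the whole array passed. Of 7 markers of glia, 5 were above background on each SMC array and 5, 6 and 3 on non-SMC arrays 1 to 3, and their part in the result was not tested. Slc1a6, a transporter known from Purkinje cells, read -7.40, -6.76 and -5.44 in SMC lines and -1.99, 1.36 and -0.96 in non-SMC lines, and did not pass (-6.00 ± 0.82, adjusted p = 0.0518).

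GABA-A receptors are the largest family here, and 7, 6 and 8 of their 18 genes were detected in SMC lines 1 to 3, against 7, 7 and 5 in non-SMC lines. Of the 6 tested genes 3 had positive and 3 negative differences. Gabra5, an alpha subunit known from the hippocampus, had -5.72, -5.64 and -2.03 in SMC lines and -5.77, -7.43 and -8.26 in non-SMC lines, the SMC lines above but by only 0.05 in pair 1 (2.69 ± 1.32, adjusted p = 0.273). The other Gabra5 probe, above background in SMC lines 1 and 3 alone, differed by 3.81, and by 3.31 in pair 1. Gabrg3, the genomic neighbour of Gabra5, was detected nowhere (-8.57, -7.70 and -6.43 in SMC lines, -8.52, -8.56 and -8.25 in non-SMC lines), so these neighbours did not share a pattern.

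Gabrd, the delta subunit of receptors outside synapses, was found in every line, at 1.54, -2.22 and -2.39 in SMC lines and -3.87, -2.03 and -4.75 in non-SMC lines. SMC line 1 stood far above the rest and the other levels overlapped (2.52 ± 1.17, adjusted p = 0.255). Gabrr1, a rho subunit known from the retina, varied little: -4.26, -4.33 and -3.56 in SMC lines, -3.43, -3.87 and -3.83 in non-SMC lines (-0.34 ± 0.36, adjusted p = 0.575). Its neighbour Gabrr2 was above background on no array (-8.27, -8.11 and -7.58 in SMC lines, -8.47, -8.26 and -7.91 in non-SMC lines).

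Gabre and Gabrp had the opposite sign. Gabre, the epsilon subunit, was at -8.47, -6.45 and -6.64 in SMC lines, never above background, and at -5.47, -4.92 and -5.24 in non-SMC lines, always above it. This made Gabre at least 2.13-fold lower in SMC, with every SMC line below every non-SMC line, but it did not pass (adjusted p = 0.115). The other Gabre probe was above background in non-SMC line 2 alone and differed by -1.51. Gabrp, the pi subunit, is known from epithelia outside the nervous system. It was detected in every line, with -6.26, -5.69 and -6.25 in SMC lines and -6.27, -2.49 and 1.04 in non-SMC lines. Non-SMC line 1 was as low as the SMC lines, and line 3 was more than 3 units above any other line (-3.49 ± 1.51, adjusted p = 0.233). Non-SMC line 3 was also the line with all 9 leukocyte markers above background (median -1.05, against -7.29 to -5.10 in SMC lines and -6.95 and -5.85 in the other non-SMC lines), and the part of these cells in the result was not tested. Epithelial markers above background numbered 7, 7 and 6 of 8 in SMC lines 1 to 3 and 4, 7 and 7 in non-SMC lines 1 to 3.

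The remaining GABA-A genes were detected in a few lines or in none. Gabrb2, a beta subunit, was detected in SMC line 3 and non-SMC lines 1 and 3 (-6.76, -6.16 and -5.53 in SMC lines, -5.43, -6.77 and -4.50 in non-SMC lines). Its neighbour Gabra6, an alpha subunit of cerebellar granule cells, was detected nowhere and read between -8.54 and -8.34 in SMC lines and between -8.83 and -8.22 in non-SMC lines.

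Gabrg1 was above background in SMC line 3 alone (-8.26, -8.21 and -4.58 in SMC lines, -8.64, -8.14 and -7.98 in non-SMC lines), while its neighbour Gabra2 was not detected (-8.23, -8.15 and -6.74 in SMC lines, -8.64, -8.27 and -7.83 in non-SMC lines). Gabra4 had 1 detecting array in each group, at -8.01, -7.98 and -2.37 in SMC lines and -8.37, -4.32 and -6.44 in non-SMC lines. Its neighbour Gabrb1 had none (-8.57, -8.51 and -6.63 in SMC lines, -8.86, -8.51 and -8.25 in non-SMC lines). Gabrq, the theta subunit, read -5.69, -3.84 and -5.88 in SMC lines and -8.56, -5.36 and -7.95 in non-SMC lines, each SMC line above its partner, with SMC lines 1 and 2 and non-SMC line 2 above background. The neighbouring Gabra3 was not detected (-8.35, -8.25 and -8.22 in SMC lines, -7.92, -7.35 and -7.98 in non-SMC lines).

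Genes that make, carry and anchor inhibitory transmitters formed a list of 24 on the array. Of 20 tested, 0 passed by limma in either direction and 6 had an unadjusted p under 0.05 (all features: 14.9% higher and 11.8% lower). The median difference was 0.41 (0.18 over all features). Gad1, the enzyme that makes GABA, had 2.14, -0.43 and -3.44 in SMC lines and -7.17, -1.55 and -6.74 in non-SMC lines, overlapping between SMC line 3 and non-SMC line 2 (4.58 ± 1.74, adjusted p = 0.198).

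Glycine receptors were represented by the beta subunit, which anchors the receptor and needs an alpha subunit to form a channel. Glrb was found in all 6 lines, at -0.44, -1.15 and 0.11 in SMC lines and -2.44, -2.23 and -2.86 in non-SMC lines. Every SMC line lay above every non-SMC line. The difference was 2.02 ± 0.47 (adjusted p = 0.117; 0.0429 with the replicate block removed). Glrb is the genomic neighbour of Gria2, whose SMC lines also all lay above. Of the 4 alpha genes, Glra2 was above background in SMC line 3 alone (-8.26, -8.23 and -5.30 in SMC lines, -8.53, -8.30 and -7.91 in non-SMC lines). Glra1, Glra3 and Glra4 were detected nowhere, with levels of -8.70 to -7.54 in SMC lines and -9.03 to -6.85 in non-SMC lines.

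Among the 11 neuronal nicotinic genes 3, 4 and 3 were detected in SMC lines 1 to 3 and 0, 3 and 0 in non-SMC lines. Chrnb2, the beta subunit of the main high-affinity nicotinic receptor of the brain, was the one that could be tested. It had nearly the same level in the 3 SMC lines, 0.39, 0.09 and 0.22, against -6.58, -1.70 and -6.50 in non-SMC lines. Non-SMC line 2 alone of its group was above background, and every SMC line lay above it. The difference of 5.16 ± 1.21 did not pass (adjusted p = 0.117). It was 6.84 (adjusted p = 0.0324) without pair 2, a fit in which 2.64% of all features were called higher in SMC. Without the replicate block and without non-SMC line 2, the one non-SMC line that detected Chrnb2, it was 6.77 (adjusted p = 0.000949). In that fit 7.76% of all features were called higher, against 0.156% with all lines and the block. Chrna4, the usual alpha partner of Chrnb2, was detected in all SMC lines and in non-SMC line 2, though by different probes. The brighter Chrna4 probe gave -6.19, -5.71 and -3.99 in SMC lines and -7.29, -5.16 and -8.13 in non-SMC lines, and the other gave -5.42, -8.44 and -0.71 in SMC lines and -7.19, -8.54 and -8.25 in non-SMC lines. Thus SMC line 3 was the highest by both probes, and no probe was above background on all arrays of a group.

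Chrna5, Chrna3 and Chrnb4 lie side by side, a cluster known in people for its association with smoking behaviour and lung cancer risk. Chrna5, an accessory subunit, was above background in SMC line 1 alone, at -3.34, -6.53 and -6.89 in SMC lines and -8.87, -8.22 and -8.24 in non-SMC lines. All SMC lines read above all non-SMC lines, at least 1.70-fold by group means, a bound that rests on SMC line 1: without it no fold could be given. Chrna3, the alpha subunit of autonomic ganglia, was detected in SMC line 2 alone, with -6.52, -5.48 and -7.25 in SMC lines and -8.65, -7.66 and -7.87 in non-SMC lines. Chrnb4 was detected nowhere (-8.27, -7.90 and -7.71 in SMC lines, -8.97, -8.58 and -8.30 in non-SMC lines). The SMC lines had the higher readings in all 3 genes of the cluster, but most of these readings were not above background and have no reliable order.

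Chrna9, a subunit known from cochlear hair cells, was above background in SMC line 3 alone (-7.22, -8.22 and -5.86 in SMC lines, -8.58, -7.16 and -7.96 in non-SMC lines). Its partner Chrna10 was detected in the SMC and the non-SMC line of pair 2, not in the other pairs (-6.96, -4.56 and -7.35 in SMC lines, -6.47, -5.34 and -8.00 in non-SMC lines). Chrna7, the homomeric receptor of neurons and immune cells, was detected nowhere, with levels of -8.24 to -6.56 in SMC lines and -8.16 to -7.94 in non-SMC lines. The adjacent Chrnb3 and Chrna6 were not detected either, Chrnb3 at -8.49 to -8.30 in SMC lines and -8.44 to -7.70 in non-SMC lines, and Chrna6 at -8.31 to -8.22 in SMC lines and -8.41 to -8.01 in non-SMC lines. Chrna2, at -8.59 to -8.47 in SMC lines and -8.94 to -8.26 in non-SMC lines, completed the 5 undetected neuronal nicotinic genes.

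Acetylcholine synthesis, breakdown and receptor assembly were followed with 22 genes on the array, of which 10 were tested. By limma 0 passed in either direction and 6 had an unadjusted p under 0.05 (all features: 14.9% higher and 11.8% lower). The median difference was 1.70 (0.18 over all features). Ric3, a chaperone for nicotinic receptors, was steady at 0.05, -0.05 and -0.12 in SMC lines, against -8.29, -1.62 and -8.02 in non-SMC lines (5.94 ± 1.56, adjusted p = 0.130). Ly6h, a membrane protein that modulates them, read -1.48, 1.42 and -1.17 in SMC lines and -5.32, -1.20 and -5.98 in non-SMC lines (3.76 ± 0.52, adjusted p = 0.0534). Ric3 had the shape of Chrnb2, with 1 detecting non-SMC array, that of line 2.

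The 5 muscle-type nicotinic genes split in both directions, and they held the one receptor gene past the threshold. Chrnb1, the beta subunit of the muscle receptor, was above background in every non-SMC line and in no SMC line. It was at -7.85, -7.44 and -6.98 in SMC lines, against -5.02, -2.88 and -2.01 in non-SMC lines. Chrnb1 was thus at least 7.97-fold lower in SMC (mean -7.42 ± 0.43 in SMC lines and -3.30 ± 1.55 in non-SMC lines, SD, n = 3; limma adjusted p = 0.0472), and it was lower in 3 of 3 pairs. The call stood close to the threshold: over 19 alternatives its adjusted p ran between 0.0071 and 0.195, and it was lost when any 1 pair was left out (0.0649, 0.0861 and 0.195 without pairs 1, 2 and 3). Without pair 1 or pair 3 no feature of the whole array passed, so those losses are not particular to Chrnb1. It was past the threshold in 6 of the 19, and with dim signals raised to the floor its difference was -2.99 (adjusted p = 0.103). On the slide of 4 arrays, where the replicate block was dropped too, the fitted difference was -5.20 (adjusted p = 0.0235). These fitted differences include SMC readings that were not above background. The bound was 14.4 without non-SMC line 1, 6.88 without line 2 and 5.09 without line 3.

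Chrna1, which binds acetylcholine at the muscle receptor, was detected in non-SMC lines 1 and 2 and in no SMC line. Its level was -8.70, -8.50 and -7.13 in SMC lines and -2.04, -5.98 and -6.38 in non-SMC lines, at least 2.82-fold lower in SMC, with no test. This bound rests on non-SMC line 1: it was 1.08 without that line, 4.25 without line 2 and 4.87 without line 3. The other Chrna1 probe, above background in non-SMC line 1 alone, differed by -1.16. Chrng, the subunit of the embryonic muscle receptor, went the opposite way and was the one receptor gene detected in all SMC lines and in no non-SMC line. It had -4.70, -5.88 and -5.02 in SMC lines, against -8.15, -7.13 and -8.17 in non-SMC lines, and was at least 2.23-fold higher in SMC without passing (adjusted p = 0.108). With the replicate block removed Chrng passed (adjusted p = 0.0319), while its second probe differed by 0.59. The neighbouring Chrnd was detected in every line, at -3.11, -2.88 and -3.70 in SMC lines and -4.22, -3.20 and -4.58 in non-SMC lines (0.77 ± 0.32, adjusted p = 0.221). Chrne, which replaces Chrng in adult muscle, was likewise found everywhere, at -2.79, -2.19 and -2.27 in SMC lines and -1.81, -2.74 and -2.85 in non-SMC lines (0.05 ± 0.45, adjusted p = 0.955). The other Chrne probe, above background in SMC line 3 alone, differed by 0.91. Each SMC line was above its non-SMC partner for Chrnd, while the brighter Chrne probe changed sign between pairs.

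Skeletal muscle markers were read beside these genes. Of 8 such markers 3, 4 and 2 were above background in SMC lines 1 to 3 and 3, 3 and 2 in non-SMC lines. The defining genes Myog, Ckm and Myl1 were above background on no array, and Myod1 on 1 non-SMC array. Myh3 and Des, not tested, had the higher group mean in SMC lines. Myh3 had means of -4.90 in SMC and -7.19 in non-SMC lines, above background on 2 SMC arrays and 1 non-SMC array. Des had means of -6.51 and -7.23, above background on 1 SMC array alone. The sarcomeric actins Acta1 and Actc1, found in all 6 lines, were lower by group means in SMC without passing the test. Acta1 read -4.72, -5.98 and -4.46 in SMC lines and -0.72, -0.61 and -2.91 in non-SMC lines (-3.64 ± 0.83, adjusted p = 0.114). Actc1 read -5.03, -4.67 and -3.19 in SMC lines and 1.47, 1.09 and -0.92 in non-SMC lines (-4.84 ± 0.95, adjusted p = 0.0990). Both had the sign of Chrnb1 and Chrna1, and their part in the result was not tested.

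The promoters of 3 of these muscle genes are shown because their levels ran in opposite directions. The letters searched were CAGCTG, the core of an E-box, which reads the same on both strands and is known to be bound by basic helix-loop-helix factors of muscle and nerve. Chrng and Chrna1 each hold 2 copies, in capitals, and Chrnb1 holds none. The SMC lines read above the non-SMC lines for Chrng and below them for Chrna1 and Chrnb1, with the dimmer group of each not above background. A part of these letters in the levels was not tested. Of the 54 promoters of receptor genes 7 hold the letters (Chrna1, Chrna9, Chrnb4, Chrne, Chrng, Gabrp and Glra3), beside 16.3% of all promoters. All are RefSeq sequences of GRCm38.p6: Chrng at chr1:87205561-87205860 on the plus strand, Chrna1 at chr2:73580289-73580588 and Chrnb1 at chr11:69795888-69796187, both on the minus strand.
Chrng: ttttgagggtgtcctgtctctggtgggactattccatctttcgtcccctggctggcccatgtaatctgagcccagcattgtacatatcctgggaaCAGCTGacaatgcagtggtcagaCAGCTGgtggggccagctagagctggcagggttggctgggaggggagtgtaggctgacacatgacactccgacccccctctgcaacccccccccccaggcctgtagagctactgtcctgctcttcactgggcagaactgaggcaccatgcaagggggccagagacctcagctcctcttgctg
Chrna1: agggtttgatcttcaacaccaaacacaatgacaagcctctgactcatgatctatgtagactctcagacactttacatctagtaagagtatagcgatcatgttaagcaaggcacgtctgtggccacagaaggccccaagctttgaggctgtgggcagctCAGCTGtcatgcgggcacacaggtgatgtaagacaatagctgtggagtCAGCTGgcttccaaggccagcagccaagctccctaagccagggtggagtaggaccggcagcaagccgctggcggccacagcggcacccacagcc
Chrnb1: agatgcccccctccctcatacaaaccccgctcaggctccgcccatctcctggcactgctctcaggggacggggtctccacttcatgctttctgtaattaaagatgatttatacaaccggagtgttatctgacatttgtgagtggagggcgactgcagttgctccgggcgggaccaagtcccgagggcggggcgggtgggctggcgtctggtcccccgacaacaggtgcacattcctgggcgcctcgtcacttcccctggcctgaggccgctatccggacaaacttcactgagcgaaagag

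**Figure D5:**
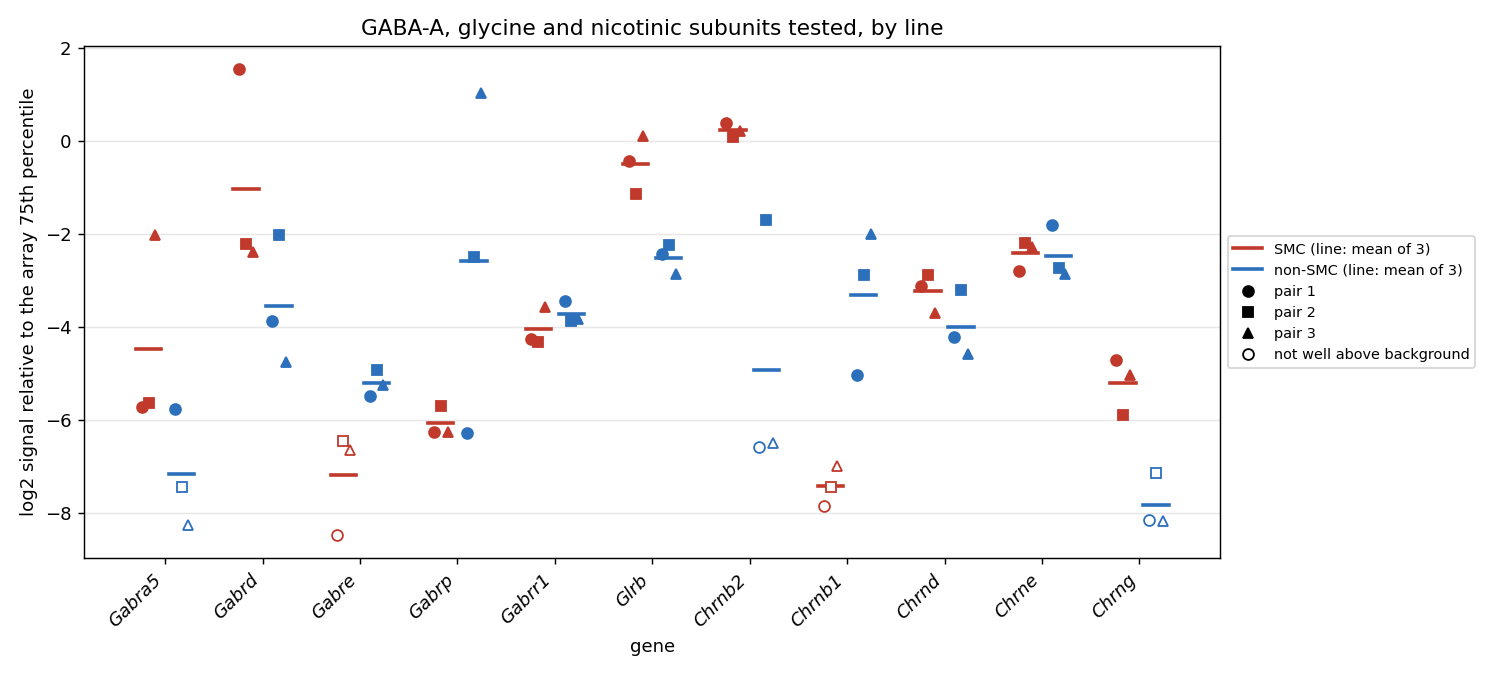
Levels of 11 tested GABA-A, glycine and nicotinic subunits (log2 signal relative to the array's 75th percentile), SMC left of non-SMC for each gene, with the mean of 3 lines as a bar and open symbols for signals not above background. Chrnb1 has 3 open SMC symbols below 3 filled non-SMC ones, Chrng has the reverse, and Gabrp shows non-SMC line 3 at 1.04 above every other line.

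The serotonin-gated channel was measured through Htr3b alone, which was detected on no array (-8.36, -7.95 and -8.25 in SMC lines, -8.60, -7.79 and -8.01 in non-SMC lines). Other ligand-gated channels, among them the acid-sensing and ATP-gated ones, gave 6 tested genes of 11 with 0 calls by limma. An unadjusted p under 0.05 was found for 3 (all features: 14.9% higher and 11.8% lower). The median difference was 0.22 (0.18 over all features). Asic1, an acid-sensing channel of neurons, was at 0.39, -1.14 and -0.08 in SMC lines and -5.29, -1.80 and -2.57 in non-SMC lines (2.95 ± 1.07, adjusted p = 0.186). The others with an unadjusted p under 0.05 were lower in SMC by limma, namely P2rx7 (-1.98 ± 0.42, adjusted p = 0.108) and P2rx4 (-1.70 ± 0.40, adjusted p = 0.119). Asic3 was detected in all SMC lines (-5.79, -5.96 and -2.35) and in no non-SMC line (-6.65, -6.81 and -6.60), at least 3.11-fold higher in SMC, not passing (adjusted p = 0.227). This bound rests on SMC line 3: it was 1.37 without that line, 4.53 without line 1 and 4.80 without line 2.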

How the data were processed

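RNA of 3 SMC and 3 non-SMC lines was hybridised to 1-colour (Cy3) Agilent arrays of design 014868. Per the file headers, scans were quantified with Feature Extraction, version 10.7.3.1, given as 10.7 per the submitters' processing notes. The deposited processed signal is an intensity, background-subtracted within the array and not normalized between arrays. The deposited log2 values of the series table have equal quantiles in all columns and served as an alternative. The deposited flags above background are calls of 0 or 1 per spot and have no scale.

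Control spots (1639) and outlier spots were dropped, log2 of the signal minus the array's 75th percentile (484.6 to 696.4 intensity units) was taken, and spots of a probe were averaged. Probes were named by unversioned accession from RefSeq GRCm38.p6 (27479 of 41174 matched 1 symbol, 13695 stayed unnamed), because the array files used here pair no symbols with probes, and normexp used the median signal in place of the mean signal. The file headers name build mm9, so of the reference coordinates only those of RefSeq promoters are printed. Of 70 RefSeq symbols fitting the rule, Chrna1os, Gabrr3, Grin1os, Grin3a and Htr3a were not analysed here. Probes that were well above background in all 3 lines of SMC, of non-SMC or of both were kept, the brightest kept probe stood for a gene, and 50 probes without a usable spot on some array (no receptor gene) were dropped.

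limma 3.58.1 (R 4.3.3) fitted pair plus group by lmFit and eBayes, two-sided, with Benjamini-Hochberg adjustment over 19848 features (13322 named), on 2 residual and 2.07 prior degrees of freedom; the script was tested on simulated data. Folds given as "at least" compare the mean of the brighter lines with a mean over the dimmer lines. In the dimmer lines a reading below the array's lowest level well above background was raised to that level. Some probes read above that level without being called, so these folds are not strict limits. Bounds with 1 of the brighter lines left out were added after the data were seen. The number of arrays, 3 a group, limits the precision.

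The pairs come from the labels. Deviations from group means correlated at -0.01, 0.13 and 0.00 within pairs 1 to 3, and at -0.14 to 0.13 between pairs. The receptor genes and the lists of partners and markers were chosen with earlier results of these data known. Values on every array are given for genes past the threshold, the 15 tested genes with the largest differences, genes detected on all 6 arrays, on all of 1 group or on exactly 1 array, and genes next to another receptor gene; of each partner list up to 3 genes past the threshold or, with none, the 2 largest. Further genes are named after their values were seen, and some genes that this rule names are left out of the text and plots. Alternatives were the scaling, background correction, probe filter and summary, the slide, the replicate block and leaving out lines.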

Additional observations from a re-analysis of the deposited data

How the results depend on the processing

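Receptor genes called higher in SMC numbered 0 in the paired fit and 3 without the replicate block (Chrng, Glrb and Grid1), 1 with median scaling (Grid1), and 0 to 8 when a pair or line was left out. The 8 came without pair 2 and also, with the block removed, without non-SMC line 2, and there were 4 without SMC line 2 (among them Chrng, Glrb and Grm7, which entered through SMC lines 1 and 3). Calls higher in SMC over all features moved too: 31 in the paired fit, 274 without the block, 239 with median scaling, 543 without pair 2, 157 without SMC line 2 and 1559 without non-SMC line 2. Receptor genes called lower numbered 1 (Chrnb1), and 0 with quantile normalization, normexp, the deposited log2 values, no filter on dim probes, detection required on all arrays, or dim signals at the floor, and 0 to 1 in the leave-outs. Requiring detection on all arrays left Chrnb1 untested, because no SMC line detected it. The replicate block changed no other receptor call. The median difference of 2.03 was 0.72 with normexp, 0.77 with no filter, 0.90 with detection on all arrays (10 genes tested), and 1.53 to 3.14 in the leave-outs, the highest without pair 2. Small differences changed sign: Chrne with median scaling (-0.03) and in 6 leave-outs (-0.20, -0.14, -0.09, -0.06 and -0.03 among them; -0.22 to 0.56 over all leave-outs), Grik4 without pair 1 (-0.09 to 4.09 over the leave-outs), Grin2d without pair 1 (-1.08 to 0.08), and Grin2b with normexp (-0.01) and without non-SMC line 2 (-0.03). The causes were not tested. The detection count difference ranged from 3.5 to 12 genes in the leave-outs and from 4.5 to 7.67 in its other alternatives, with a smallest possible p above 0.05 in each. Signals at background limit 41 of the 65 genes, which were not tested.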
